A study of Arabidopsis thaliana with 9 samples.

Results

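CLE41, OPS, PEAR2, LHW and GUT2 are 5 Arabidopsis thaliana genes of the root vascular cylinder, taken here as 1 group by their known roles in procambium, phloem and xylem. Each was chosen by name, by the rule that 1 probe set of the array is annotated to that gene alone, and the 5 probe sets stand among 22746 tested and 13513 annotated to a single gene. The choice was made with earlier results of these data known. The loci are AT3G24770 for CLE41, AT3G09070 for OPS, AT5G02460 for PEAR2, AT2G27230 for LHW and AT1G27440 for GUT2, which is also called IRX10.

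RNA came from the terminal 0.5 mm of primary roots of seedlings 4 days after germination, with about 200 root tips in each replicate and 3 biological replicates per genotype. The quadruple mutant was mutated in CNA (cna-2), PHB (phb-13, written phb1 in the titles), PHV and REV (rev-6); some of its labels name phv-11 and others phv-6. The triple mutant had phv-11, phb-13 and cna-2, and its labels name no rev allele. Wild type was Col er-2, and the labels name er-2 for wild type only. No treatment was given. Quadruple homozygotes were picked by their radial cotyledons out of a population that segregated for rev-6, and the labels describe no such picking for the triple mutant or wild type. Nothing in the labels tells whether the replicates grew on separate plates, so the spread between them may be partly technical.

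CNA, PHB, PHV and REV code for transcription factors of the HD-ZIP III family, which is known for patterning the vascular cylinder and for promoting xylem identity. In the root, phloem and xylem form from procambial cells. Peptides of the CLE41 and CLE44 type are known to come from the phloem side and to act on procambial cells through the receptor kinase PXY, where they hold back xylem differentiation. LHW is a bHLH factor that pairs with TMO5 to drive the divisions that widen the vascular cylinder, OPS is a membrane-associated protein needed for protophloem, PEAR2 is a Dof factor of the early phloem, and GUT2 is a glycosyltransferase that builds the xylan backbone of secondary walls.

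All values are log2 signals of 1-colour ATH1 arrays as deposited, on which a difference of 1 is a doubling. PHV, the mutated gene with a listed probe set, had log2 signals of 5.03 to 5.22 in quadruple-mutant tips, 4.71 to 4.77 in triple-mutant tips and 7.14 to 7.28 in wild type, so it was low in both mutants. Being mutated in both, it cannot check the rev-6 label, and CNA, PHB and REV were not analysed here. Array medians were 5.91 to 5.95 for quadruple-mutant arrays, 5.92 to 5.95 for triple-mutant arrays and 5.79 to 5.89 for wild-type arrays. Of the markers fixed for other cell types of the tip, 5 of 24 were measured: the quiescent-centre gene AGL42 and the stem-cell factor BBM stood at log2 changes of 1.33 and 0.45 in quadruple-mutant against triple-mutant tips (limma adjusted p = 0.00149 and 0.0353). Against wild type the quadruple mutant stood at 0.70 for AGL42 and 0.60 for BBM (limma adjusted p = 0.203 and 0.0947). The triple mutant stood at -0.63 for AGL42 and 0.15 for BBM (limma adjusted p = 0.0737 and 0.526). Groups did not overlap for AGL42 in any comparison, nor for BBM where the quadruple mutant was compared. Neither did those of EXPA7 between wild type and each mutant. Over all probe sets, groups did not overlap for 14.9% between the triple mutant and wild type. That share was 12.8% between the quadruple mutant and wild type and 16.5% between the quadruple and the triple mutant. The root-hair expansin genes EXPA7 and EXPA18 and the cortex-list locus AT1G62500 passed no comparison. No root-cap marker and none of 28 xylem genes had a listed probe set. EXPA7 and EXPA18, genes of growing root hairs, lay at 3.48 to 4.14 on all arrays.

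**Figure D1:**
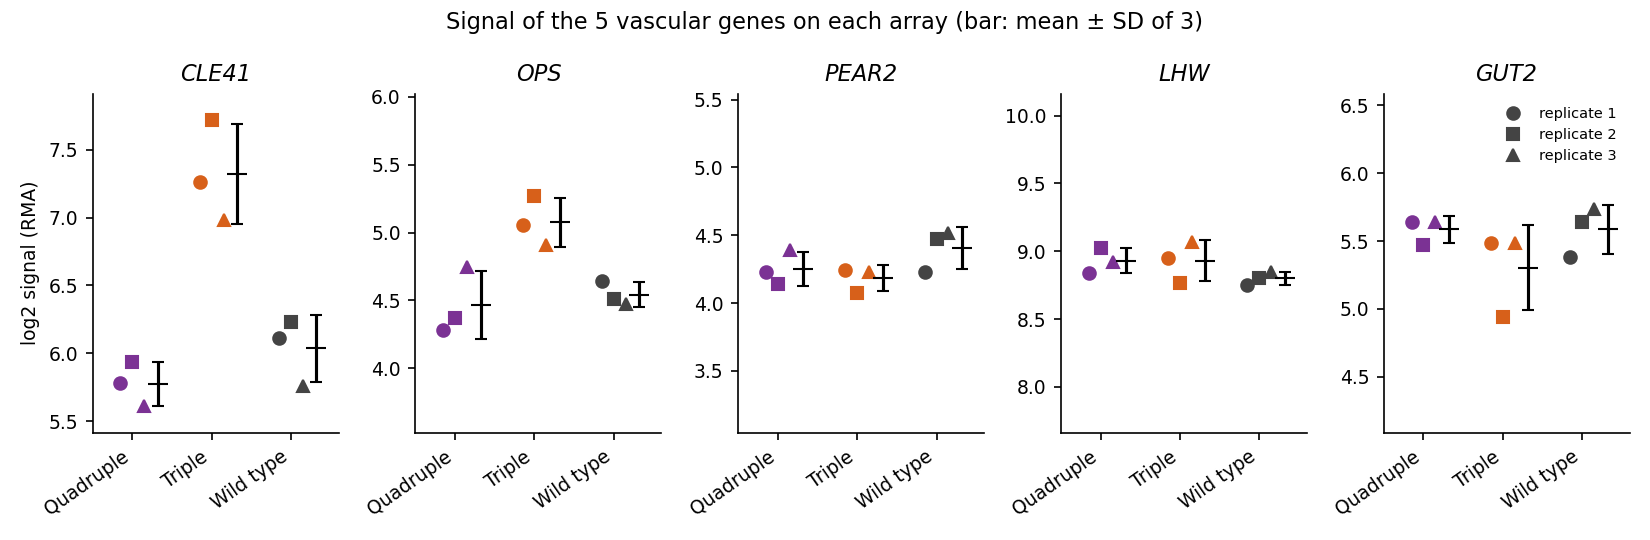
Log2 signal of CLE41, OPS, PEAR2, LHW and GUT2 (vertical axes, each spanning the same 2.5 log2 units) on the 9 arrays, for the quadruple mutant, the triple mutant and wild type from left to right. Symbols mark the replicate number and the bar gives the mean ± SD of 3 arrays. The triple-mutant points of CLE41 and OPS lie above all points of the other genotypes, whereas the groups of the other 3 genes overlap.

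CLE41 encodes the precursor of the peptide TDIF, a ligand that keeps procambial cells dividing. In the quadruple mutant its log2 signal was 5.78, 5.93 and 5.61 on replicates 1, 2 and 3. In the triple mutant it was 7.26, 7.72 and 6.98, and in wild type it was 6.11, 6.23 and 5.76. All 3 triple-mutant arrays stood above every other array, by at least 0.75 over the highest wild-type array and 1.05 over the highest quadruple-mutant array, while the quadruple mutant and wild type overlapped.

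CLE41 rose 2.43-fold in the triple mutant against wild type (7.32 ± 0.37 against 6.04 ± 0.25, SD, n = 3 each; log2 change 1.28, SE 0.19, 95% interval 0.87 to 1.69, limma adjusted p = 0.00763). The difference within each replicate number was 1.14, 1.48 and 1.22, so it was positive in 3 of 3 pairs. Where groups do not overlap, any pairing gives that count, so such counts add nothing, here or below. In absolute size the log2 change of CLE41 was exceeded by 0.369% of all probe sets. CLE41 was the 1 gene of the 5 that passed here, and 1.73% of all probe sets passed in this comparison. Because the 5 were chosen with earlier results of these data known, counts among them are a description and not a test against such shares.

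In the quadruple mutant CLE41 was 2.92-fold lower than in the triple mutant (5.77 ± 0.16 against 7.32 ± 0.37, SD, n = 3 each; log2 change -1.54, SE 0.19, 95% interval -1.96 to -1.13, limma adjusted p = 0.00201), with lower signal in 3 of 3 pairs. It was again the 1 gene of 5 to pass, beside 2.22% of all probe sets. Between the quadruple mutant and wild type it stood at -0.26 (95% interval -0.67 to 0.15, limma adjusted p = 0.667), an interval that reaches from 0.627-fold to 1.11-fold. No gene of the 5 passed in that comparison, none had an unadjusted p under 0.05, and 0.044% of all probe sets passed. The level of CLE41 was thus ordered triple mutant, wild type, quadruple mutant. The last 2 overlapped and their difference did not pass, although the quadruple-mutant array was the lower one in each of the 3 pairs, by 0.33, 0.30 and 0.15. With the replicate block the SE of this difference was 0.10 and the limma adjusted p was 0.283. The comparisons share arrays, since the triple mutant enters both that passed.

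The CLE41 calls kept their side of the threshold in the alternative fits that were run, including those without each of the 9 arrays in turn. The adjusted p was at most 0.0421 against wild type, where only the 6 arrays compared were fitted, and at most 0.0166 against the triple mutant, without replicate 1 of the quadruple mutant. Replicate 2 was the highest and replicate 3 the lowest array of CLE41 in every genotype. The triple-mutant arrays also had the highest hybridization spike-in controls, at mean log2 signals of 10.16 to 10.29, against 9.94 to 10.02 in the quadruple mutant and 9.83 to 10.07 in wild type, and AGL42 was lowest on the triple-mutant arrays, at 5.09 to 5.50, against 6.35 to 6.76 in quadruple-mutant tips and 5.66 to 6.04 in wild type. The part of either in the CLE41 values was not tested.

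OPS, also called OCTOPUS, is a polar membrane-associated protein that is known to promote protophloem differentiation. Its log2 signal was 4.28, 4.37 and 4.75 in the quadruple mutant, 5.06, 5.27 and 4.91 in the triple mutant and 4.65, 4.51 and 4.48 in wild type. These are dim signals, all below the array medians and above the lower quartiles of 3.64 to 3.79, and no detection call was used. As with CLE41, every triple-mutant array stood above every other array, but by only 0.16 over the highest quadruple-mutant array and 0.26 over the highest wild-type array.

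In the fit without the replicate block OPS did not pass in any of the comparisons. Against wild type the triple mutant stood at 0.53 (5.08 ± 0.18 against 4.54 ± 0.09, SD, n = 3 each; SE 0.14, 95% interval 0.23 to 0.84, limma adjusted p = 0.0937), with higher signal in 3 of 3 pairs. The quadruple mutant stood at -0.61 against the triple mutant (4.47 ± 0.25 against 5.08 ± 0.18, SD, n = 3 each; SE 0.14, 95% interval -0.91 to -0.31, limma adjusted p = 0.05002), with lower signal in 3 of 3 pairs. That value lies just past the threshold of 0.05, and the replicate number as a block, which fits the pairing of same-numbered arrays, gave an adjusted p of 0.0375. Without replicate 3 of the quadruple mutant, its highest array, the log2 change was -0.75 (limma adjusted p = 0.0227). In the other 8 fits without 1 array the adjusted p was 0.0522 to 0.207. Between the quadruple mutant and wild type OPS stood at -0.08 (95% interval -0.38 to 0.23, limma adjusted p = 0.881).

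CLE41 and OPS were thus the 2 genes of 5 whose 3 triple-mutant arrays did not overlap the 3 arrays of either other genotype. Groups of 3 that do not overlap were found for 14.9% of all probe sets between the triple mutant and wild type and for 16.5% between the quadruple and the triple mutant. Between the quadruple mutant and wild type 0 of the 5 genes had groups that did not overlap, beside 12.8% of all probe sets. In bulk tissue such as these tips, fewer cells of a type and less RNA per cell cannot be told apart.

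**Figure D2:**
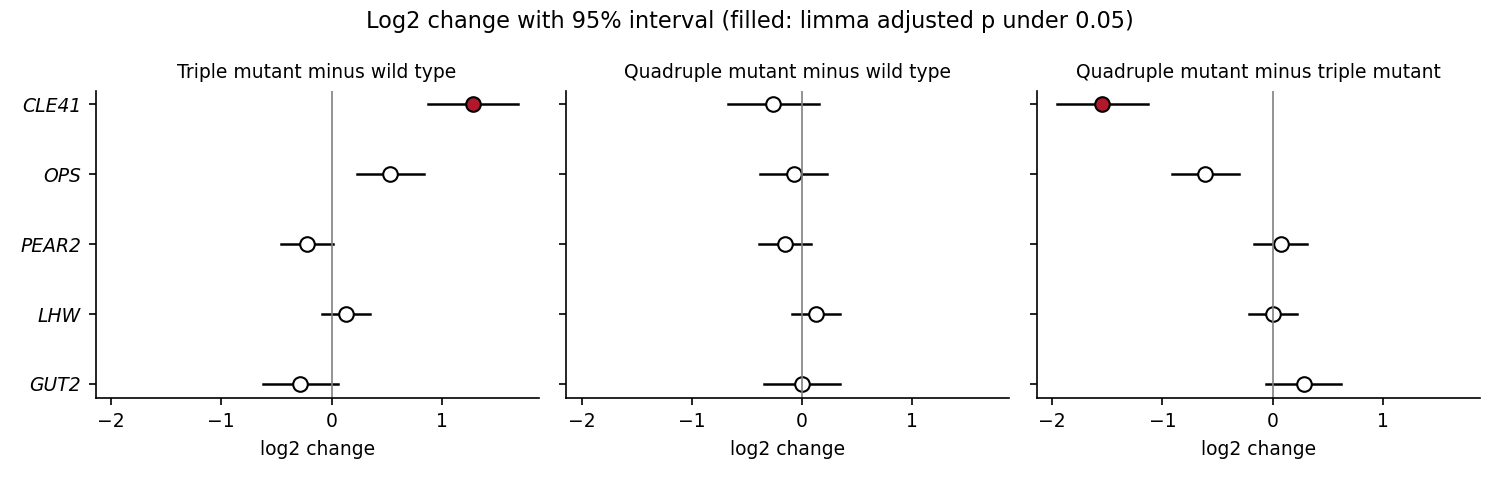
Log2 change (horizontal axis) with its 95% interval from limma for the 5 genes in the 3 comparisons of genotypes. Filled points passed at an adjusted p under 0.05: CLE41 at 1.28 and at -1.54, with the intervals of OPS in the same 2 panels also clear of 0 but not past the threshold after adjustment.

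PEAR2 is a Dof transcription factor of the phloem lineage that promotes radial growth of the root vascular cylinder, and HD-ZIP III factors are known to restrict the PEAR proteins. Its log2 signal was 4.23, 4.14 and 4.39 in the quadruple mutant, 4.24, 4.07 and 4.23 in the triple mutant and 4.23, 4.48 and 4.52 in wild type. The 3 genotypes overlapped, and like OPS the gene lay below the array medians on every array. The log2 change was -0.22 in the triple mutant against wild type (95% interval -0.46 to 0.01, limma adjusted p = 0.396) and -0.15 in the quadruple mutant against wild type (95% interval -0.39 to 0.08, limma adjusted p = 0.661). The quadruple mutant stood at 0.07 against the triple mutant (95% interval -0.17 to 0.31, limma adjusted p = 0.937). Against wild type these intervals reach from 0.726-fold to 1.01-fold in the triple mutant and from 0.763-fold to 1.06-fold in the quadruple mutant.

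LHW, the bHLH partner of TMO5, had log2 signals of 8.84, 9.03 and 8.92 in the quadruple mutant, 8.95, 8.77 and 9.07 in the triple mutant and 8.75, 8.80 and 8.85 in wild type. Its 3 genotypes lay within 0.32 log2 units of each other on all arrays and overlapped. Against wild type both mutants stood at 0.13 (95% interval -0.09 to 0.35 for each; limma adjusted p = 0.604 for the triple and 0.688 for the quadruple mutant). After median centring these values were 0.03 and 0.04, and without triple-mutant replicate 2 or 3 the triple mutant stood at 0.21 or 0.06 against wild type. The means of the quadruple and the triple mutant were both 8.93, and the 95% interval of their difference ran from 0.861-fold to 1.16-fold (limma adjusted p = 0.9999). Of the 5 genes LHW had the lowest spread within genotypes, with a pooled SD of 0.11, against 0.13 for PEAR2, 0.18 for OPS, 0.22 for GUT2 and 0.27 for CLE41.

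GUT2 encodes a xylosyltransferase of xylan synthesis, which is most active where xylem cells lay down secondary walls. It had log2 signals of 5.64, 5.47 and 5.64 in the quadruple mutant, 5.49, 4.94 and 5.49 in the triple mutant and 5.38, 5.64 and 5.73 in wild type. Replicate 2 of the triple mutant was the lowest of the 9 arrays, and the genotypes overlapped. The triple mutant stood at -0.28 against wild type (95% interval -0.62 to 0.06, limma adjusted p = 0.462), and the quadruple mutant stood at 0.28 against the triple mutant (95% interval -0.06 to 0.62, limma adjusted p = 0.594). Without triple-mutant replicate 2 these log2 changes were -0.10 and 0.10. The means of the quadruple mutant and wild type were both 5.59 (95% interval -0.34 to 0.34, limma adjusted p = 0.9995).

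The moderated F-test asks of each gene whether any of the 3 genotype means differs. It passed for CLE41 (limma adjusted p = 0.00375) and for none of the other 4 genes, where limma adjusted p was 0.0734 for OPS, 0.549 for PEAR2, 0.559 for GUT2 and 0.713 for LHW. Over all probe sets 2.08% passed it. The median log2 change of the 5 genes was 0.13 in the triple mutant against wild type, -0.08 in the quadruple mutant against wild type and 0.00 in the quadruple against the triple mutant, beside -0.02, 0.00 and 0.03 over all probe sets.

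The same pathways hold other genes with a listed probe set, and 16 of the 105 genes of the 5 vascular lists were measured, the 5 genes included. Of the 11 others, 0 passed in any comparison (limma), where 1.73%, 0.044% and 2.22% of all probe sets passed in the triple mutant against wild type, the quadruple mutant against wild type and the quadruple against the triple mutant. At such shares a count of 0 among 11 says little. In the same order 1, 2 and 3 of them had an unadjusted p under 0.05, beside 13.5%, 9.39% and 10.9% of all probe sets. Groups did not overlap for 2, 2 and 4 of them, beside 14.9%, 12.8% and 16.5% of all probe sets. The lists were chosen with earlier results of these data known, so these counts are a description.

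Among ligands, the second TDIF precursor gene CLE44 had log2 signals of 4.44, 4.63 and 4.43 in the quadruple mutant, 4.49, 4.43 and 4.08 in the triple mutant and 4.03, 4.66 and 4.43 in wild type. CLE44 thus overlapped between the genotypes, with log2 changes of -0.04 in the triple mutant against wild type (95% interval -0.40 to 0.32) and 0.17 in the quadruple against the triple mutant (95% interval -0.19 to 0.53). Whether CLE41 and CLE44 differ in their change was not tested. Of 6 CLE peptide genes with a listed probe set, CLE41 alone passed in the triple mutant against wild type and in the quadruple against the triple mutant, beside 1.73% and 2.22% of all probe sets, and CLE21, CLE26, CLE27, CLE40 and CLE44 passed in no comparison (limma). The log2 changes of those 5 in the triple mutant against wild type lay between -0.30 for CLE27 and -0.02 for CLE26. All 5 were dim, below the array medians on every array. CLE21, at 2.99 to 3.58, and CLE40, at 3.08 to 3.27, lay below even the lower quartiles of 3.64 to 3.79. CLE27 lay at 3.85 to 4.37. Such signals limit what change could be seen, so CLE41 cannot be called the only CLE gene that changed.

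Among receptor kinases, PXL2, a relative of the TDIF receptor PXY, had log2 signals of 6.01, 5.68 and 6.14 in the quadruple mutant, 6.79, 6.30 and 6.75 in the triple mutant and 6.36, 5.91 and 6.51 in wild type. Its arrays did not overlap between the quadruple and the triple mutant, where it stood at -0.67 (95% interval -1.09 to -0.25, limma adjusted p = 0.128), and with the replicate block the adjusted p was 0.00150. Against wild type the triple mutant stood at 0.35 (limma adjusted p = 0.455, and 0.0410 with the replicate block). PXL1, the other PXY relative, stood at 0.03 in the triple mutant against wild type and at -0.21 in the quadruple against the triple mutant (limma adjusted p = 0.944 and 0.687). MOL1, a receptor-like kinase that limits cambium activity in stems, stood at 0.16 for the triple and 0.18 for the quadruple mutant against wild type (limma adjusted p = 0.448 and 0.532). Groups did not overlap either for PXL1 between the quadruple and the triple mutant or for MOL1 between wild type and each mutant. PXY itself was not analysed here.

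On the list of the LHW and TMO5 pathway 4 of 18 genes were measured. The locus AT2G28510 had log2 signals of 7.15, 6.55 and 7.15 in the quadruple mutant, 7.70, 7.53 and 7.50 in the triple mutant and 7.07, 6.90 and 6.95 in wild type, so that its triple-mutant arrays stood above the other 6. It stood at 0.60 in the triple mutant against wild type (limma adjusted p = 0.0931) and at -0.63 in the quadruple against the triple mutant (limma adjusted p = 0.0756). With the replicate block these adjusted p were 0.0198 and 0.0160. The other 2 loci, AT5G09460 and AT5G50010, overlapped between genotypes, with limma adjusted p of 0.557 or above in the 3 comparisons.

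On the phloem list CLE26, a peptide gene, was measured beside OPS and PEAR2 and stood at -0.02 for the triple and 0.09 for the quadruple mutant against wild type (limma adjusted p = 0.966 and 0.833). Of 18 genes of xylan synthesis 4 were measured. GUT1, the closest relative of GUT2, had log2 signals of 8.36 to 8.47 on quadruple-mutant arrays, 8.31 to 8.52 on triple-mutant arrays and 8.38 to 8.60 on wild-type arrays. GUT1 stood at -0.07 for the triple and -0.06 for the quadruple mutant against wild type (95% intervals -0.28 to 0.14 and -0.27 to 0.15). IRX15 and IRX15-L, which are needed for normal xylan in secondary walls, had dim signals of 3.15 to 3.77. IRX15-L stood at -0.33 in the quadruple against the triple mutant (limma adjusted p = 0.131). It passed only with array weights, at -0.30 (limma adjusted p = 0.0288). Array weights took the share of all probe sets that passed there from 2.22% to 7.31%. The quadruple-mutant arrays of IRX15-L did not overlap those of the triple mutant or wild type, beside 16.5% and 12.8% of all probe sets.

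**Figure D3:**
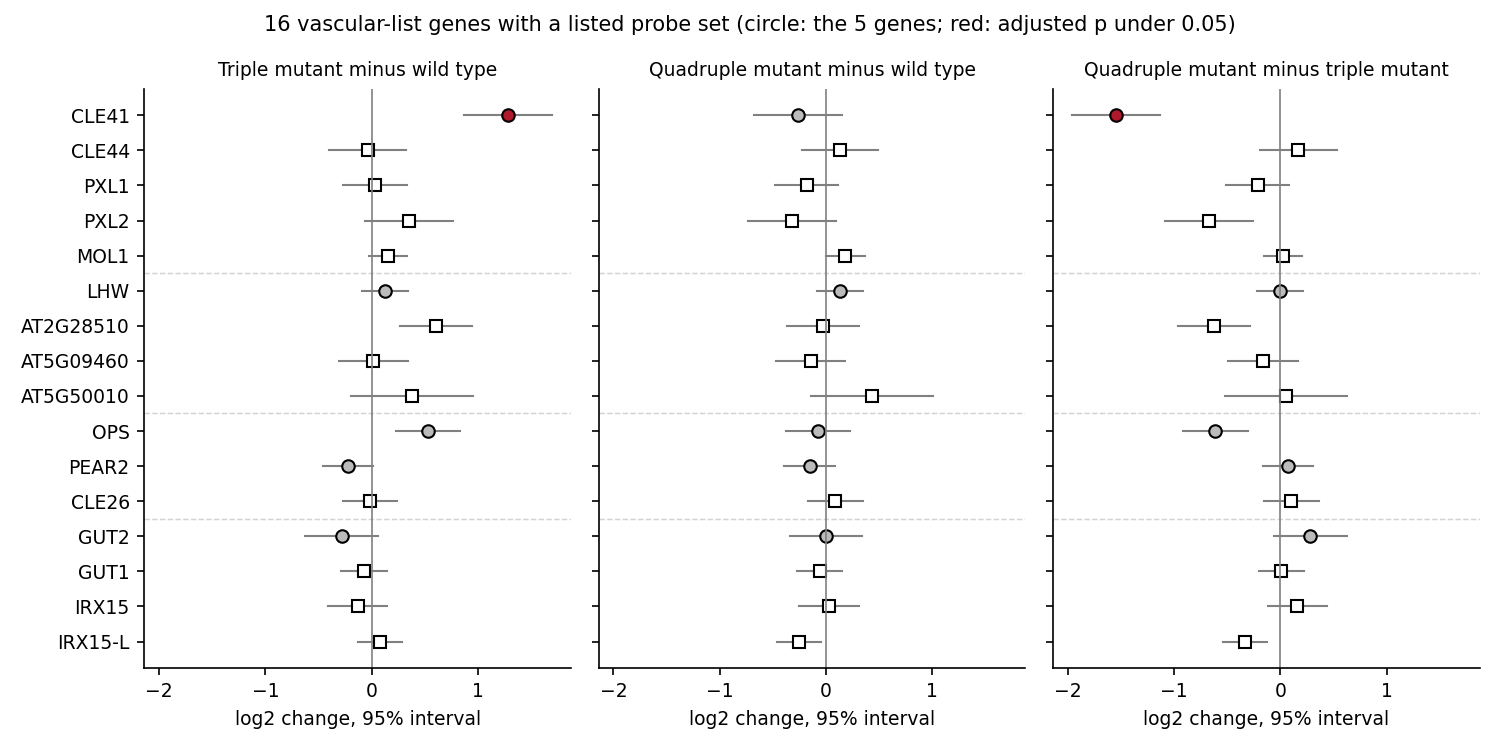
Log2 change with its 95% interval for the 16 measured genes of the 5 vascular lists in the 3 comparisons, grouped from top to bottom into procambium, the LHW and TMO5 list, phloem and xylan synthesis. Circles mark the 5 genes described first, squares the other 11, and red marks an adjusted p under 0.05, reached by CLE41 at 1.28 and -1.54.

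With the replicate block the number of the 16 genes that passed was 3 in the triple mutant against wild type, namely CLE41, PXL2 and AT2G28510, and 4 in the quadruple against the triple mutant, with OPS added. Without the block it was 1 in each. The block raised the share of all probe sets that passed as well, to 5.06% and 4.90%, against 1.73% and 2.22% without it, so nothing particular to the 16 genes is read from the rise. The quadruple mutant against wild type gave 0 genes with and without the block.

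The genes most like each of the 5 over the 9 arrays were taken from 3920 other single-gene probe sets with a mean log2 signal of at least 5 and a range of at least 0.5. The measure was Pearson's r over 9 arrays, which here follows the genotype means and is given as a description. CLE41 was most like LTI30, a dehydrin gene known from cold and drought responses (r = 0.984), AT4G28400 (r = 0.982) and AT2G47710 (r = 0.977). The 10th gene in this order still had r = 0.964. LTI30 rose by 1.06 in the triple mutant against wild type and was lower by 1.49 in the quadruple against the triple mutant (limma adjusted p = 0.0362 and 0.00514). In the same order AT4G28400 stood at 0.70 and -0.77 (limma adjusted p = 0.0374 and 0.0203). AT2G47710 stood at 0.74 and -0.85 and passed only between the mutants (limma adjusted p = 0.05014 and 0.0227). Of all probe sets 1.73% and 2.22% passed in these comparisons.

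OPS was most like AT3G24450 (r = 0.963), AT4G30470 (r = 0.949) and AT3G52800 (r = 0.945). These 3 genes had log2 changes of 0.64 to 0.81 in the triple mutant against wild type and of -0.95 to -0.69 in the quadruple against the triple mutant. They passed in both, beside 1.73% and 2.22% of all probe sets. The genes most like CLE41 and OPS were picked for following them over these same arrays, so their calls are no separate support for either gene. The profiles nearest to PEAR2 were AT2G41050, AT3G62330 and AT1G04030, at r = 0.898 to 0.927. Those nearest to LHW were AT2G19880, AT1G04200 and AT3G42630, at r = 0.862 to 0.878, and those nearest to GUT2 were AT1G72730, AT3G03570 and AT5G55610, at r = 0.894 to 0.934. None of these 9 genes passed in any comparison (limma adjusted p = 0.215 or above).

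**Figure D4:**
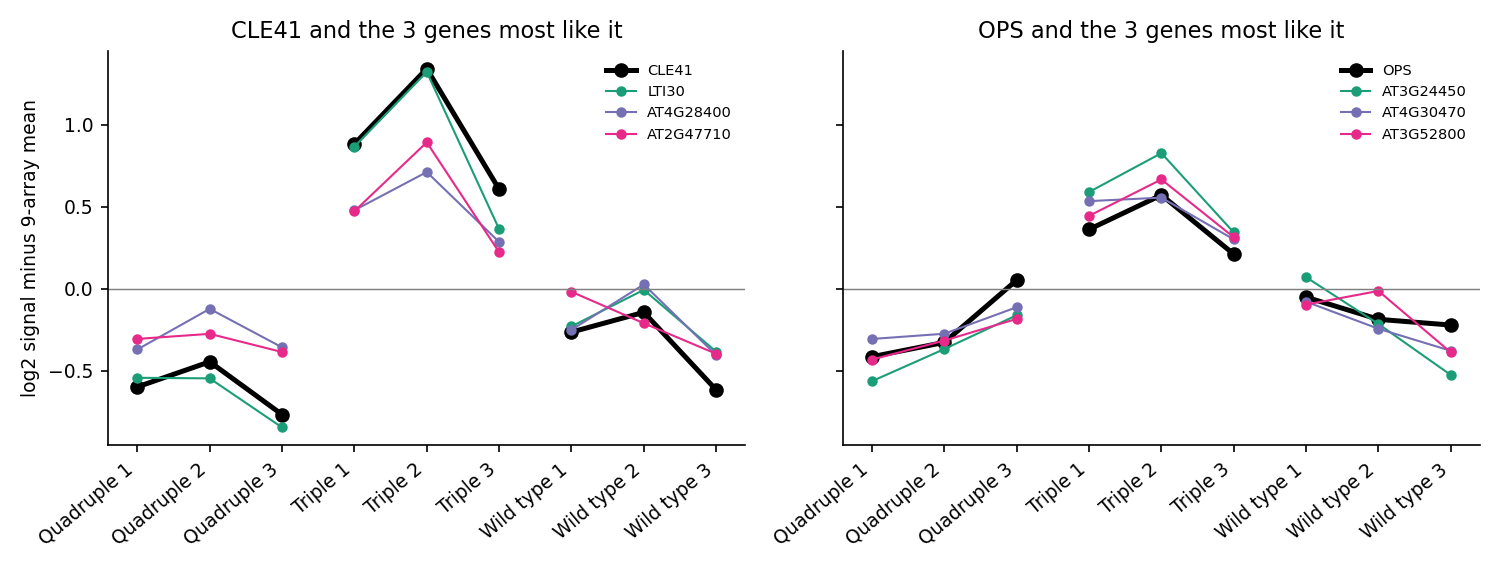
Log2 signal minus the mean of the 9 arrays (vertical axis) for CLE41 and OPS, in black, and for the 3 genes most like each, array by array, with the quadruple mutant, the triple mutant and wild type from left to right. All 4 genes in each panel are highest on the 3 triple-mutant arrays, and CLE41 and LTI30 (r = 0.984) nearly coincide.

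The nearest measured genes on both sides of each of the 5 in the RefSeq gene order, a set chosen after the values of the 5 were seen, did not pass in any comparison, beside 1.73%, 0.044% and 2.22% of all probe sets, shares at which 0 of 10 says little. Over these 10 neighbours the log2 changes were -0.35 to 0.24 in the triple mutant against wild type, -0.27 to 0.23 in the quadruple mutant against wild type and -0.10 to 0.26 in the quadruple against the triple mutant, with limma adjusted p of 0.399 or above. AT3G24760 and AT3G24780, which flank CLE41, stood at -0.08 and -0.22 in the triple mutant against wild type.

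**Figure D5:**
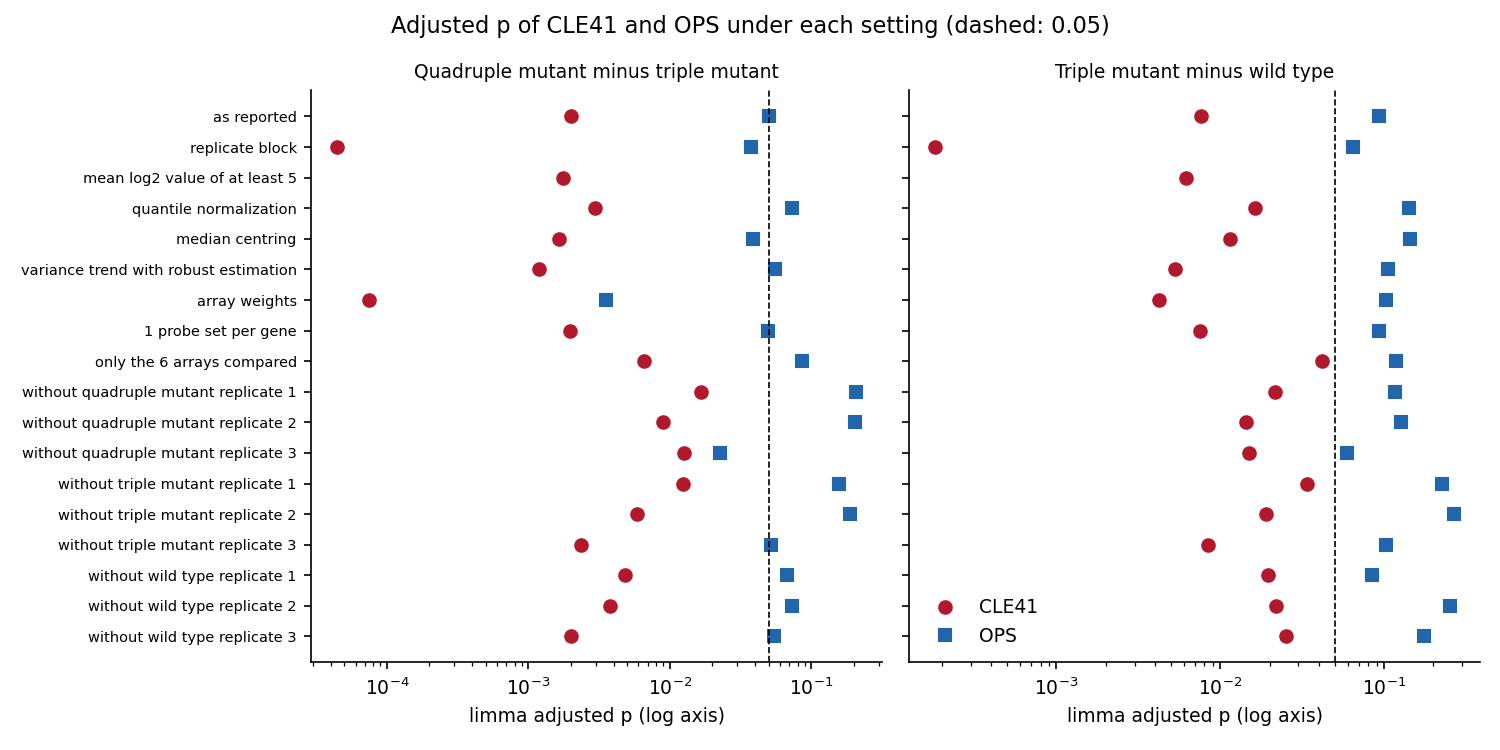
Limma adjusted p (log axis) of CLE41, circles, and OPS, squares, for the quadruple against the triple mutant and for the triple mutant against wild type, as reported and under each alternative setting. The dashed line marks 0.05: CLE41 lies left of it throughout, at most at 0.0421, and OPS lies on both sides of it in the left panel and right of it throughout in the right panel.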

How the data were processed

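The values deposited by the authors are log2 signals, 1 for every probe set on every array. The submitters' processing notes name Affymetrix Expression Console, RMA and limma, with versions not given in the sources used here. Per the labels' protocols 250 ng of total RNA was labelled per array. RMA, which includes quantile normalization between arrays, reports each transcript on a common scale, so a change is relative to other transcripts. Of 22810 probe sets, 64 controls were left out. Platform annotation, updated through the RefSeq table of TAIR10.1, gave 1 gene for 13513 probe sets and several for 503, and 8730 were not listed. The array names no build, so no coordinates are given.

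A linear model with 1 mean for each genotype was fitted to the 9 arrays (limma 3.58.1, R 4.3.3; 6 residual degrees of freedom), with lmFit and eBayes. P-values were adjusted by Benjamini-Hochberg over 22746 probe sets, and adjusted p under 0.05 passed. The fit was tested on simulated data. The 5 genes and all lists were chosen with earlier results of these data known. Every measured gene of the 5 vascular lists could be named, by its brightest probe set, with the 3 genes most like each of the 5; a list of Dof factors could not be formed, because the table has no descriptions.

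To see whether replicate numbers pair the arrays, each array's deviations from its genotype mean were correlated with those of the same number in another genotype: r was 0.273, 0.330 and 0.408 for the triple mutant and wild type, 0.217, 0.340 and 0.515 for the 2 mutants, and 0.0427, 0.342 and 0.360 for the quadruple mutant and wild type. The titles' numbers were read as pairing the first 2 of these comparisons. For the quadruple mutant and wild type r was near 0 for replicate 1 only, so pairs counted there are a description. P-values come from the fit without the block unless the block is named. The number of arrays limits the precision. Alternatives were the replicate block, a mean log2 value of at least 5, quantile normalization, median centring, robust estimation with a variance trend, array weights, 1 probe set per gene, the 6 arrays compared, and leaving out each array.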

Additional observations from a re-analysis of the deposited data

Results flagged for a closer look

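Outside the genes, the 18 hybridization spike-in probe sets, which report bacterial and phage RNA added to each array, differed with genotype. Their mean log2 signal was 10.16 on the lowest triple-mutant array and 10.07 on the highest of the other 6 arrays, and the same 3 arrays carried the highest signals of CLE41 and OPS. The part of this difference in the results was not tested.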

How the results depend on the processing

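Of 249 values of the 5 genes under an alternative, 234 kept both direction and side of the threshold, and 0 calls were lost. CLE41 was 1.18 to 1.28 in the triple mutant against wild type and -1.54 to -1.53 in the quadruple against the triple mutant over 8 settings, and 1.08 to 1.45 and -1.71 to -1.35 without 1 array. OPS in the quadruple against the triple mutant passed with the replicate block (-0.61), median centring (-0.60), array weights (-0.68) and 1 probe set per gene (-0.61), at adjusted p = 0.0375, 0.0385, 0.00353 and 0.0494; without 1 array it was -0.75 to -0.52. Its F-test passed with array weights (adjusted p = 0.00942) and without quadruple-mutant replicate 3 (0.0358). Values near 0 changed sign without passing: GUT2 in the quadruple mutant against wild type was -0.083 after quantile normalization, -0.088 after median centring and -0.10 to 0.074 without 1 array; LHW between the mutants was -0.0048 after quantile normalization, -0.032 with array weights and -0.081 to 0.071 without 1 array; OPS in the quadruple mutant against wild type was -0.22 to 0.016 without 1 array. The cause was not tested. Of the 16 list genes, 1 passed in the triple mutant against wild type, 3 with the replicate block, 2 with the 6 arrays compared and 1 to 2 without 1 array; in the quadruple against the triple mutant 1 passed, 4 with the replicate block, 5 with array weights, 2 with median centring or 1 probe set per gene and 1 to 2 without 1 array. The block took the share of all probe sets that passed to 5.06% and 4.90% in these comparisons and array weights took it to 2.20% and 7.31%, against 1.73% and 2.22%. The block changed no other call of the 5 genes. OPS and PEAR2 have a mean under 5, so the filter gave no value for them. Median centring moved the median of all probe sets from -0.017 to -0.12 in the triple mutant against wild type. After median centring LHW was 0.028 for the triple and 0.041 for the quadruple mutant against wild type. Signals below the array median on all 9 arrays limit what can be measured for OPS, PEAR2 and GUT2 and for CLE44, PXL1, CLE21, CLE26, CLE27, CLE40, IRX15, IRX15-L, AT5G09460 and AT5G50010.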
